A study of Rattus norvegicus with 6 samples.

Results

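The genes of the nuclear-encoded oxidative phosphorylation machinery were examined in cortical neural progenitors of the rat. Members were the gene names that begin with *Nduf*, *Cox4* to *Cox8*, *Uqcr*, *Atp5* or *Sdha* to *Sdhd* in the deposited abundance tables, which gave 89 of 17337 gene names. They comprised 70 genes for protein subunits of complexes I to V, 6 genes for isoforms whose expression is known to be restricted to certain tissues, 8 genes for assembly factors and 5 other names. *Cyc1*, which encodes cytochrome c1 of complex III, falls outside the naming rule and is given with the other genes of the pathway. The subunits encoded in mitochondrial DNA were not analysed here, nor were *Cox6b1*, *Cox7a1*, *Cox7b2*, *Ndufa3*, *Ndufa13*, *Ndufb1* and *Ndufc1*.

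The cells were untreated, came from the cortices of Sprague Dawley rats at embryonic day 14 and were expanded with the growth factors bFGF and EGF up to the second passage. There was 1 condition. Biological replicates A and B each gave 2 technical libraries of polyA-selected mRNA (A1, A2, B1 and B2), so the n of every mean is 2 and no test between groups was possible. Levels are FPKM, the fragments of a gene scaled to transcript length and library depth, averaged over the technical libraries of a replicate and then over A and B. The SD is that of the 2 replicates.

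Oxidative phosphorylation passes electrons from NADH through complex I, or from succinate through complex II, to complex III, cytochrome c and complex IV, where oxygen is reduced. Complexes I, III and IV pump protons across the inner mitochondrial membrane, and complex V, the ATP synthase, uses their return to make ATP. Subunits of complexes I, III, IV and V are encoded in both genomes of the cell, whereas all those of complex II are nuclear, and several subunits of complex IV exist as isoforms used in different tissues. Progenitors in the embryonic cortex are known to draw on glycolysis as well as on respiration.

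The labelled cell type was checked against its markers, and all 9 neural progenitor markers exceeded a mean of 10 FPKM. None of 4 endothelial and none of 4 microglial markers reached a mean of 1 FPKM, although *Cdh5* and *Aif1* gave 1.002 and 1.20 FPKM in B2. All 6 neuronal markers did, with a summed level of 144 to 188 FPKM, most of it *Tubb3* at 118 FPKM. The 8 mesenchymal and meningeal markers were all higher in replicate B, with a summed level of 632 and 648 FPKM in the libraries of A and of 2509.7 and 3016 FPKM in those of B. The summed level of the progenitor markers was 21047 and 23124 FPKM in A and 10111 and 10869 FPKM in B, most of it *Fabp7*. *Fabp7* and *Hes5* met the criteria given below as higher in A and the other 7 did not. Of these, *Sox2*, *Notch1* and *Hes1* were lower in both libraries of B, at -0.59, -0.58 and -0.32 in B minus A of log2(FPKM + 1). *Pax6* stood at -0.40 with overlapping libraries, and *Vim*, *Nes* and *Slc1a3* were slightly above 0. Library B2 had a lower depth, with a coverage of 6.83 per FPKM against 22.7 to 24.4 in the other libraries.

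Of the 89 members, 83 had a mean of at least 1 FPKM, against 60.5% of all gene names. A mean of at least 10 FPKM was reached by 77 members (38.3% of all names) and at least 100 FPKM by 61 (6.14% of all names). The median subunit stood at 213 FPKM, at percentile 97.4 of all names. By comparison, the median of the 69 mitochondrial ribosomal protein genes was 46.2 FPKM, and that of the 82 cytosolic ribosomal protein names was 1041 FPKM. The median subunit thus lay between the medians of both sets of ribosomal protein genes, whose ranges overlapped with that of the subunits.

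Of all TPM, members took 2.99% and 3.25% in the libraries of A and 3.11% and 3.20% in those of B, which gave 3.14 ± 0.029% (SD, n = 2). TPM is scaled so that every library sums to 1000000. Complexes I and V contributed 0.975 ± 0.043% and 0.988 ± 0.024%, complex IV 0.772 ± 0.042%, complex III 0.242 ± 0.0039% and complex II 0.107 ± 0.0027%. Complex V thus held about the same share as complex I with fewer genes, 15 against 33. Mitochondrial ribosomal proteins held 0.660 ± 0.028%.

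By complex, the median subunit level was highest in complex IV, at 485 FPKM over 10 genes, followed by complex V at 313 FPKM over 15 genes. Complex I had a median of 177 FPKM over 33 genes, complex II of 148 FPKM over 4 genes and complex III of 146 FPKM over 8 genes. The medians of complexes II and III were closer together than the spread between replicates of complex III, 131 FPKM in A and 162 FPKM in B. All 25 subunits of complexes IV and V exceeded 100 FPKM.

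**Figure D1:**
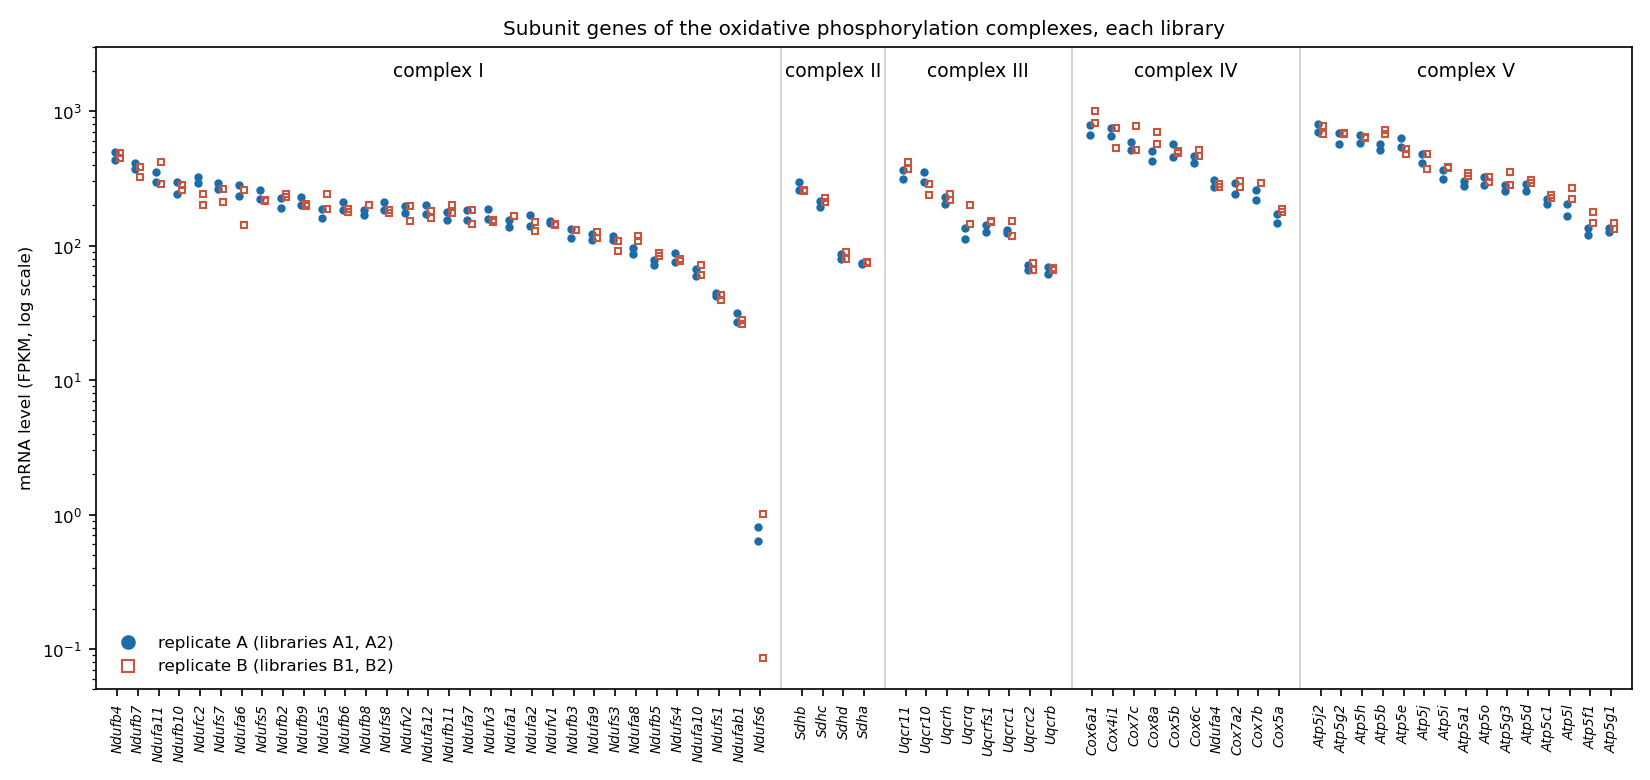
FPKM of 69 of the 70 subunit genes in each library on a log axis, ordered by mean within each complex (filled circles, libraries A1 and A2; open squares, libraries B1 and B2). Apart from *Ndufs6*, whose 4 values lie between 0.086 and 1.01, the subunits sit above 26 FPKM in every library.

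In complex I, the NADH dehydrogenase, the highest subunits were *Ndufb4* at 467 ± 2.1 FPKM, *Ndufb7* at 373 ± 25 FPKM and *Ndufa11* at 339 ± 19 FPKM (SD, n = 2). All are accessory subunits of the membrane arm, *Ndufb4* and *Ndufb7* in its distal and *Ndufa11* in its proximal part. At the low end, *Ndufab1* gave 27.1, 31.5, 28.2 and 26.3 FPKM in A1, A2, B1 and B2. It encodes the mitochondrial acyl carrier protein, which also serves fatty acid synthesis, and its libraries overlapped between A and B.

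The 7 nuclear core subunits of complex I, which carry the flavin and the iron-sulfur clusters or shape the quinone site, ranged from 42.2 to 258 FPKM with a median of 146 FPKM. *Ndufv1*, which binds NADH and the flavin, stood at 146 ± 5.0 FPKM and its partner *Ndufv2* at 181 ± 8.5 FPKM. *Ndufs1*, the largest iron-sulfur subunit, stood at 42.2 ± 1.6 FPKM and was the lowest of the 7 in all 4 libraries. In the quinone-binding module, *Ndufs7* (258 ± 28 FPKM) and *Ndufs8* (188 ± 12 FPKM), which hold the last clusters of the electron path, were above *Ndufs3* (107 ± 9.8 FPKM). The core genes of this complex thus differed 6.10-fold in level, far more than A and B differed in any of them.

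*Ndufs6*, a small zinc-binding subunit of the NADH-binding module, gave 0.638, 0.815, 1.01 and 0.0859 FPKM and was the only subunit under 10 FPKM. Its row lies on the forward strand of rn6 at chr2:26471173-26471587 and spans 415 bp. RefSeq places the gene of that name on chromosome 1 of the later assembly GRCr8, and *Ndufs6* was the only one of the 89 members whose chromosome differed in this way. Whether the row measures the expressed gene was not tested, and it took no part in the comparison of A and B because its mean was below 1 FPKM.

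*Ndufa1*, a subunit of the proximal membrane arm encoded on the X chromosome, had a pair of loci in rn6, at chrX:123803116-123806760 and chrX:124513150-124516791. In B1 they were listed apart with 83.0 and 82.8 FPKM, and in B2 with 83.1 and 83.3 FPKM. In A1 and A2 a single row spanned both and held 139 and 154 FPKM. The sums of the rows, 166 FPKM in both libraries of B, were used here.

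Complex II, the succinate dehydrogenase, was the only complex whose order of levels was separated throughout. *Sdhb*, the iron-sulfur subunit, stood at 267 ± 14 FPKM, above the membrane anchor *Sdhc* at 211 ± 11 FPKM, the other anchor *Sdhd* at 84.1 ± 1.5 FPKM and the flavoprotein *Sdha* at 74.4 ± 0.73 FPKM. *Sdha* gave 73.4, 74.3, 74.2 and 75.5 FPKM in the 4 libraries. In each of the 3 neighbouring pairs of this order, the lowest library of the higher gene exceeded the highest library of the lower gene. In the other complexes few neighbours were separated in this way, 6 of 32 pairs in complex I, 2 of 7 in III, 2 of 9 in IV and 2 of 14 in V. This share also depends on gene number, since more genes within a similar range lie closer together. The SD of log2 level was 0.93 over 4 genes in complex II and 0.86 over 32 genes above 1 FPKM in complex I. The part of gene number was not tested.

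In complex III, which transfers electrons from quinol to cytochrome c, the small subunits *Uqcr11* (368 ± 38 FPKM), *Uqcr10* (293 ± 45 FPKM) and *Uqcrh* (224 ± 10 FPKM) were highest. *Uqcrfs1*, the Rieske iron-sulfur protein, stood at 143 ± 12 FPKM. The core proteins *Uqcrc1* and *Uqcrc2* gave 131 ± 5.3 and 69.8 ± 0.91 FPKM, and *Uqcrb* was lowest at 66.1 ± 1.0 FPKM. *Uqcrc2* and *Uqcrb* overlapped between libraries.

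In complex IV, the cytochrome c oxidase, *Cox6a1* had the highest mean of all members, 821 ± 130 FPKM, with 670.0, 788, 822 and 1004 FPKM in the 4 libraries. In both libraries of A it was below *Atp5j2* of complex V, at 699 and 800.5 FPKM. *Cox6a1* lies on the forward strand of rn6 at chr12:47024442-47027495. *Cox4i1*, at chr19:54245958-54252198, followed at 670 ± 44 FPKM and *Cox7c* at 596 ± 67 FPKM. *Cox5b*, which binds zinc, stood at 505 ± 11 FPKM and *Cox5a*, which also faces the matrix, at 171 ± 16 FPKM. *Cox5a* was the lowest subunit of the complex and *Cox7b*, at 265 ± 38 FPKM, the next.

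In complex V, the head subunits alpha to epsilon are encoded by *Atp5a1*, *Atp5b*, *Atp5c1*, *Atp5d* and *Atp5e*. The catalytic beta subunit *Atp5b* stood at 620 ± 111 FPKM and alpha, *Atp5a1*, at 313 ± 35 FPKM. The rotor subunits followed at 222 ± 15 FPKM for gamma, *Atp5c1*, at 286 ± 22 FPKM for delta, *Atp5d*, and at 545 ± 60 FPKM for epsilon, *Atp5e*. The highest levels of the complex were those of *Atp5j2*, the f subunit, at 738 ± 17 FPKM, *Atp5g2*, a c subunit gene, at 656 ± 39 FPKM and *Atp5h*, the d subunit of the stalk, at 629 ± 9.5 FPKM. *Atp5f1*, the b subunit of the stalk, and *Atp5g1* were lowest at 145 ± 25 and 135 ± 7.2 FPKM, and the single row of *Atp5f1* spans 168258 bp. Alpha and beta, which alternate in the head in equal number, differed 1.98-fold in mRNA level.

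In 3 isoform families of complex IV, the ubiquitous gene carried nearly all of the mRNA. Subunit 4 regulates the enzyme, and *Cox4i2* is its form in lung and in cells around vessels. *Cox4i1* held 99.9 ± 0.11% of the family and *Cox4i2* gave 1.16, 1.90, 0.405 and 0.312 FPKM. *Cox6a2*, the heart and skeletal muscle form of subunit 6a, gave 0.368, 0.461, 0.812 and 1.02 FPKM, and *Cox6a1* held 99.9 ± 0.031% of that family. *Cox4i2* was lower and *Cox6a2* higher in both libraries of B than in those of A, all at levels below 2 FPKM.

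Of subunit 8, *Cox8a* held 99.97 ± 0.019%. *Cox8b*, the form of heart and skeletal muscle, was listed at 0.248, 0, 0.147 and 0 FPKM, and *Cox8c*, a form of the testis, at 0, 0.148, 0.0429 and 0 FPKM. Neither was thus detected in every library.

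*Ndufa4l2*, which is induced by hypoxia and also found in cells around vessels, gave 3.09, 3.09, 3.37 and 1.95 FPKM against 284.5 ± 8.2 FPKM for *Ndufa4*. *Ndufa4* was first counted to complex I by name and is a subunit of complex IV, where both were placed. It held 99.0 ± 0.077% of the pair.

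*Cox6b2*, the testis form of subunit 6b, was the highest of the restricted isoforms, with 12.9, 14.5, 21.0 and 21.8 FPKM in A1, A2, B1 and B2. Both libraries of B exceeded those of A. Its share could not be given because *Cox6b1* was not analysed here. *Cox7a2* stood at 277 ± 15 FPKM, also without a partner to compare.

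Of the muscle markers, *Myh7*, *Ckm* and *Myog* had a mean below 1 FPKM, *Actn2* and *Myh6* were at 1.05 and 1.49 FPKM, and *Tnnt2* gave 0.552 and 0.461 FPKM in A and 3.39 and 11.3 FPKM in B. The summed level of the 6 muscle markers ranged from 4.10 to 5.72 FPKM in A and from 5.82 to 12.4 FPKM in B. *Tnnt2* alone was higher in B, while *Myh6* gave 2.95 and 1.73 FPKM in A and 0.877 and 0.418 FPKM in B and the other 4 were also lower in both libraries of B. Of 9 mural cell markers 5 reached 1 FPKM, with a summed level of 765 and 857 FPKM in A and of 705 and 1525 FPKM in B, of which *Tagln* made up 695, 793, 593 and 1391 FPKM. *Acta2* and *Anpep* met the criteria given below as higher in B and no mural marker as higher in A. *Notch3* gave 32.7 and 26.8 FPKM in A and 14.6 and 20.6 FPKM in B, and *Kcnj8* and *Abcc9* were likewise lower in both libraries of B. *Pdgfrb* gave 21.7 and 17.6 FPKM in A and 31.5 and 38.3 FPKM in B, and *Rgs5* and *Cspg4* were likewise higher in both libraries of B. *Rgs5*, *Kcnj8*, *Abcc9* and *Cspg4* stayed below 1 FPKM in all libraries. The part of other cells in the low isoform levels was not tested.

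The c subunit, which forms the rotating ring of complex V, is made from 3 genes that encode one mature protein. Unlike the isoforms of complex IV, all 3 were well expressed. *Atp5g2* held 60.5 ± 1.0%, *Atp5g3* 27.0 ± 1.3% and *Atp5g1* 12.5 ± 0.29% of their sum. The order *Atp5g2* over *Atp5g3* over *Atp5g1* held in all 4 libraries.

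**Figure D2:**
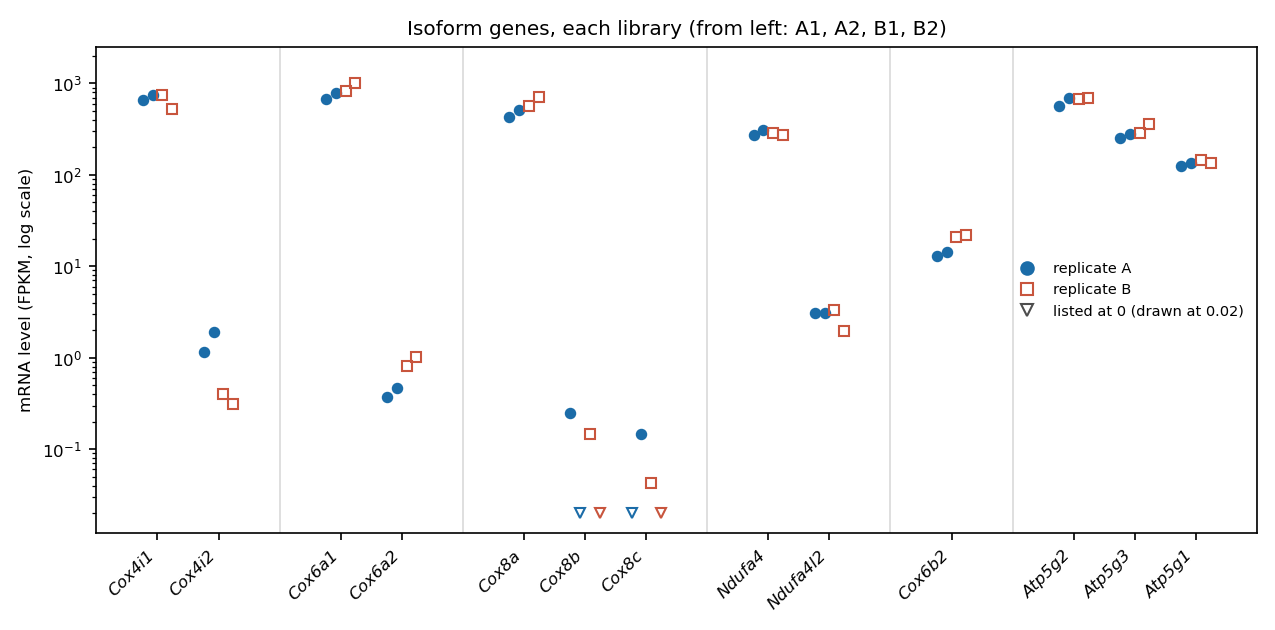
FPKM of the isoform genes in each library on a log axis (filled circles, A1 and A2; open squares, B1 and B2; triangles, values listed at 0). *Cox4i1*, *Cox6a1* and *Cox8a* lie above 400 FPKM in every library while *Cox4i2*, *Cox6a2*, *Cox8b* and *Cox8c* lie below 2 FPKM, and the *Atp5g* genes lie between 125 and 693 FPKM.

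The stretches before the start sites of a ubiquitous and a restricted isoform are shown as an example of a pair that stood far apart, at 552 and 0.0989 FPKM. They are the 120 bases upstream of the RefSeq start in GRCr8, both on the reverse strand, at chr1:213833624-213833743 for *Cox8a* and chr1:205408274-205408393 for *Cox8b*. Capitals mark CTTCCGG, the reverse complement of the ETS core, in *Cox8a* and TATAAA in *Cox8b*.
Cox8a: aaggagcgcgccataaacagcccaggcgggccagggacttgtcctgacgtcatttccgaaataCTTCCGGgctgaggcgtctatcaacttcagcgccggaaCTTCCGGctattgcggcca
Cox8b: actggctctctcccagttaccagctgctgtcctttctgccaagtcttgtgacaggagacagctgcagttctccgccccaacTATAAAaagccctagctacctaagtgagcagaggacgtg
The *Cox8a* stretch held 2 ETS cores and 11 CG pairs. The *Cox8b* stretch held 2 CG pairs and no ETS core. *Cox8c*, at 0.0478 FPKM, stood still further from *Cox8a*. Its stretch, not shown, held 5 CG pairs and neither an ETS core nor TATAAA.

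Promoters of 76 members were listed by RefSeq, as 250 bases before to 50 bases after the start. Nuclear respiratory factor 1, the ETS factor GABP (nuclear respiratory factor 2) and YY1 are known regulators of respiratory genes. Both strands were searched for CGCATGCG, the palindromic centre of the NRF1 motif, for CCGGAAG, the ETS core, for AAGATGGCG, a YY1 motif, and for TATAAA, which do not contain one another. The NRF1 centre was found in 9 of 76 member promoters (11.8%) against 1.81% of 27457 promoters and 2.23% of the 18999 protein-coding ones, and the ETS core in 22 (28.9%) against 9.22% and 11.2%. The YY1 motif was in 10 (13.2%) against 1.93% and 2.29%, and TATAAA in 6 (7.89%) against 14.3% and 13.1%. The median number of CG pairs, which the first 3 of these motifs contain, was 20 in member promoters, 7 in all and 12 in protein-coding ones, and its part in the shares was not tested. Of the 5 restricted isoforms with a promoter entry, none held the NRF1, ETS or YY1 letters and *Cox8b* held TATAAA. The promoters of *Cox8c*, *Ndufa4* and *Ndufa4l2* held none of the motifs searched, so the contrast of *Cox8a* and *Cox8b* was absent between *Ndufa4* and *Ndufa4l2*. A match is no evidence of binding.

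Further upstream stretches are shown for members with NRF1 or YY1 letters, again 120 bases from GRCr8. *Ndufa11* (chr9:1637494-1637613, forward) held 2 overlapping NRF1 centres, and *Atp5g2* (chr7:135678219-135678338, reverse) held 1. *Atp5j* (chr11:37375102-37375221, reverse), the coupling factor 6 gene, held the YY1 letters followed by an ETS core. Capitals mark these letters.
Ndufa11: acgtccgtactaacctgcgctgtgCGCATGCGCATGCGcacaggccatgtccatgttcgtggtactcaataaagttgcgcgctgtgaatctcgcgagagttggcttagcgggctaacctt
Atp5g2: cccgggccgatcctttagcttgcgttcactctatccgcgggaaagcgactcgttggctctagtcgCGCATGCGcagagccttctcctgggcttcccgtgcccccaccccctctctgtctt
Atp5j: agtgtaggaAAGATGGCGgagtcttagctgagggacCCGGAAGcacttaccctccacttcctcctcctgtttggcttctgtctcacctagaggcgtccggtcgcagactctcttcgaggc

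Position was another feature that the naming rule did not use. The members lay on 19 chromosomes, so the set is dispersed. Their median gene span was 6833 bp and 65.2% were under 10 kb, against a median of 15254 bp and 39.5% for all gene names. Across the 69 subunits above 10 FPKM, span and level had a Spearman correlation of -0.50, a description over genes measured in the same libraries, whose FPKM are themselves divided by transcript length.

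A gene on the opposite strand began within 1000 bp upstream of 19 members (21.3%), against 6.56% of all gene names. Among names with a mean of at least 1 FPKM the shares were 22.9% and 9.75%. *Atp5j* began 163 bp from *Gabpa*, which encodes the DNA-binding subunit of GABP, and the pair stood at 435 and 10.3 FPKM. *Sdha* lay 74 bp from *Ccdc127*, *Ndufa7* 113 bp from the ribosomal protein gene *Rps28*, *Sdhd* 146 bp from *Timm8b*, which encodes a protein import chaperone, and *Ndufb5* 266 bp from the mitochondrial ribosomal protein gene *Mrpl47*. Of these partners, *Ccdc127* stood at 6.33 FPKM, *Mrpl47* at 10.9 FPKM, *Timm8b* at 167 FPKM and *Rps28* at 987 FPKM.

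The 8 assembly factors caught by the naming rule, which help build the complexes without remaining in them, had a median of 10.2 FPKM, 21.0-fold below the median subunit. The median of 30 further assembly factors outside the rule was higher, at 21.9 FPKM. *Ndufaf3* (39.5 ± 7.1 FPKM) and *Sdhaf2* (38.7 ± 4.5 FPKM), which assists the flavination of *Sdha*, were highest. *Ndufaf5*, *Ndufaf7*, *Ndufaf6* and *Ndufaf4* gave 18.9 ± 3.8, 10.3 ± 0.49, 10.1 ± 1.9 and 8.48 ± 0.78 FPKM. *Ndufaf1* and *Sdhaf3* were lowest at 5.60 ± 0.77 and 5.12 ± 1.1 FPKM. By mean, *Ndufaf3* lay below all subunits with the exceptions of *Ndufab1* and *Ndufs6*, but in both libraries of A it was slightly above *Ndufs1*.

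Among the other names, *Cox7a2l*, which takes part in the joining of complexes III and IV, stood at 128 ± 24 FPKM. *Atp5sl*, *Ndufa10l1* and *Atp5s* gave 21.9 ± 3.5, 8.10 ± 0.14 and 7.26 ± 0.094 FPKM. *Cox6c-ps1*, a pseudogene, was listed at 0 in all libraries. Pseudogenes named after 39 of the 89 members, 91 in all, are annotated in GRCr8, and how reads shared with such copies were counted is not given in the sources used here.

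Further genes of the pathway were taken from 3 lists. Of 12 electron carriers and further subunits, 11 reached 1 FPKM, with *Usmg5*, a small subunit of the ATP synthase, highest at 588 ± 9.8 FPKM and the testis cytochrome c, *Cyct*, listed at 0. *Cyc1* gave 181, 188, 190.1 and 169 FPKM and *Cycs*, cytochrome c, 98.0, 108, 98.2 and 120.5 FPKM. Both overlapped between A and B.

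Of 37 further assembly factors 30 were listed, and all 30 exceeded 1 FPKM. They ranged from 2.44 ± 0.033 FPKM for *Taco1*, a translational activator of the mitochondrial genome, to 131 ± 2.3 FPKM for *Uqcc2*. Among 14 regulators 13 reached 1 FPKM. *Tfam*, which packages mitochondrial DNA and takes part in its transcription, was highest at 39.9 ± 1.3 FPKM. The coactivator *Ppargc1a* gave 2.05, 1.88, 1.81 and 1.25 FPKM and its relative *Ppargc1b* was lowest at 0.249 ± 0.16 FPKM. In none of these lists did a gene meet the criteria for a difference between A and B that are given next, which 6.15% of all names met. *Gpd2* (-0.64), *Coq10b* (-0.57) and *Tfb2m* (-0.54) came closest in B minus A of log2(FPKM + 1), with no overlap of libraries.

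**Figure D3:**
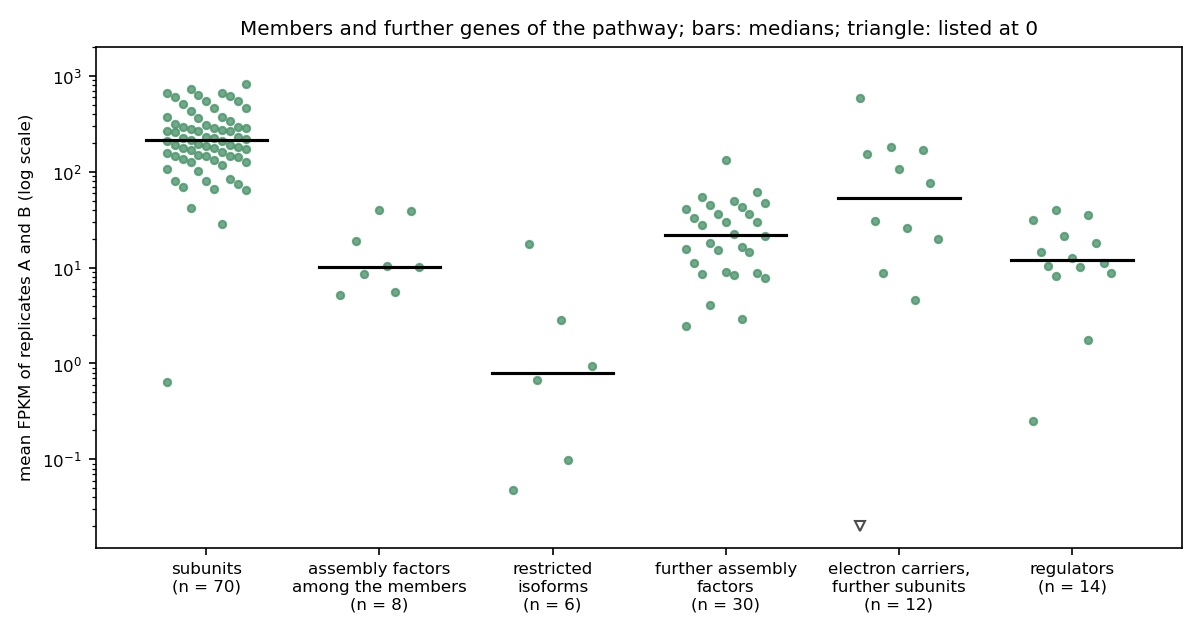
Mean FPKM of each gene on a log axis for the subunits, assembly factors and restricted isoforms among the members and for 3 further lists of the pathway (circles, genes; bars, medians; triangle, the gene listed at 0). The medians run from 213 FPKM for the subunits over 21.9 FPKM for the further assembly factors to 0.804 FPKM for the restricted isoforms.

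Replicates A and B were compared next. A gene with a mean of 1 FPKM or more was counted as differing if both libraries of one replicate exceeded both of the other and the replicates lay 1 or more apart in log2(FPKM + 1). This held for 0 of the 83 members tested, against 6.15% of 10481 gene names, 4.58% higher in B and 1.57% higher in A. Among names with a mean of at least 10 and of at least 100 FPKM it held for 4.96% and 5.17%. With the threshold at 0.58, 1 member passed, *Cox6b2*, which was higher in B by 0.61, against 16.5% of all names. With TPM in place of FPKM it was 1 of 86 members, *Cox4i2*, which was higher in A, against 6.91% of 10983 names. In these bulk samples, fewer cells of a type and less RNA per cell cannot be told apart.

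Of the 83 members, 82 differed by less than 0.5 on this scale, 98.8% against 78.3% of all names. The same held for 69 of 69 mitochondrial ribosomal protein genes, for 30 of 30 further assembly factors, for 12 of 13 regulators, for 67 of 79 cytosolic ribosomal protein genes and for 9 of 11 electron carriers and further subunits. The median difference of B minus A was 0.05 for the 69 subunits and -0.03 for all names. Without library B2 these were 0.09 and -0.02, and with TPM the median of the 69 subunits was -1.27e-05 and that of all names -0.08. The subunits with the most negative values were *Ndufc2* (-0.47) and *Ndufa6* (-0.43), whose value in B1, 258 FPKM, lay within the range of A and only that in B2, 142 FPKM, below it. Those with the most positive were *Uqcrq* (0.47), *Cox8a* (0.44) and *Atp5l* (0.42). *Ndufc2*, of the proximal membrane arm of complex I, gave 292 and 325 FPKM in A and 243 and 202 FPKM in B. *Cox8a* gave 427 and 508 FPKM in A and 569.6 and 704 FPKM in B. The libraries of A and B did not overlap in either gene.

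**Figure D4:**
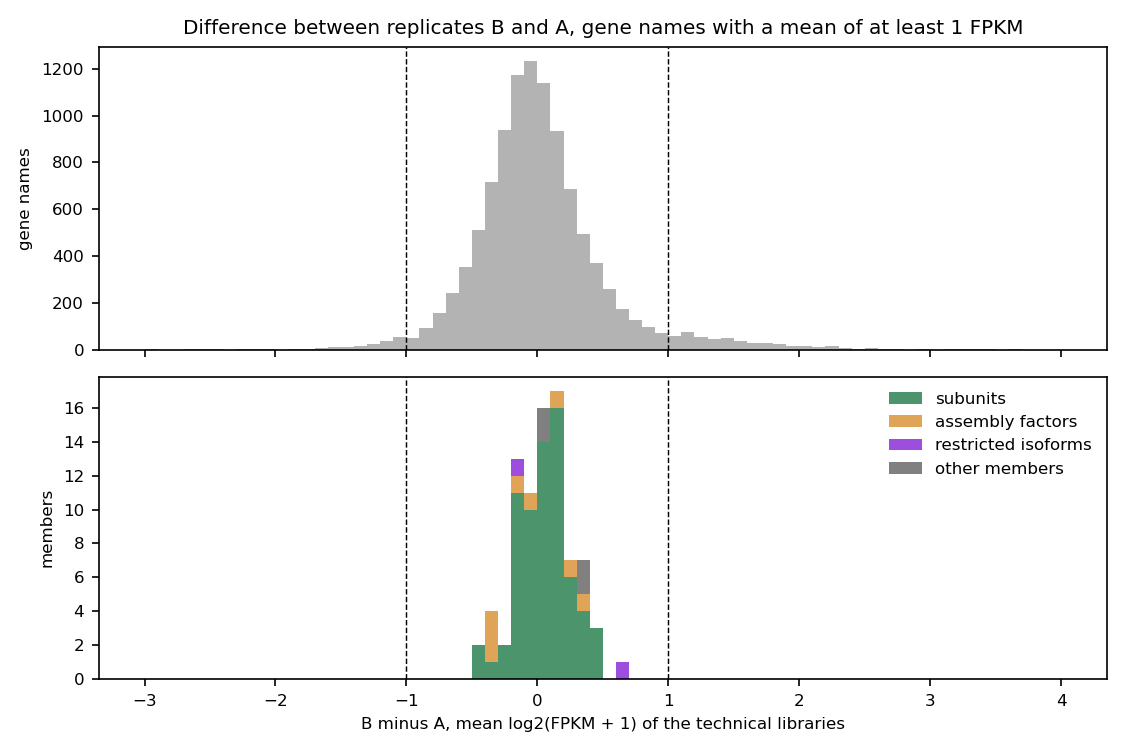
Numbers of gene names (top, 10481 names) and of members (bottom, 83, by class) against the difference of B minus A in mean log2(FPKM + 1), with dashed lines at -1 and 1. The members lie between -0.47 and 0.61, while all names reach from -2.98 to 3.69.

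Regardless of size, the libraries of A and B did not overlap for 40 of the 83 members, against 60.1% of all names. Without overlap and higher in B were 27 of the 83, against 28.1% of all 10481 names, and higher in A 13 of the 83, against 32%. The cytosolic ribosomal protein genes had a median difference of 0.31 and the mitochondrial ones of -0.04, with none counted as differing in either set. Without library B2 the mitochondrial median was 0.08, with 40 of 69 genes above 0 instead of 29, and the cytosolic one 0.41.

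The differences were small in every complex. The median was 0.18 for complex IV, 0.13 for complex V, 0.08 for complex III, 0.03 for complex II and -0.06 for complex I. In complex IV 7 of 10 subunits were above 0, and in complex V 12 of 15, or 10 of 15 with TPM. In complex I it was 14 of 32, and over all names 4839 of 10481. In the NADH-binding module of complex I it was 0 of the 7 subunits above 1 FPKM, or 1 of 7 without library B2. Without that library the medians were 0.16 for complex V, 0.15 for complex III, 0.09 for complex IV, -0.01 for complex I and -0.02 for complex II, which changed the order of the complexes. With TPM in place of FPKM the medians shifted by about as much as that of all names, from -0.03 to -0.08, and 34 of the 69 subunits instead of 43 were above 0.

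The summed FPKM of complex IV over that of complex I was 0.732 and 0.744 in A1 and A2, 0.779 in B1 and 0.922 in B2. For complex V over complex I it was 0.968 and 0.965 in A, 1.002 in B1 and 1.13 in B2. The libraries of A and B did not overlap in either ratio, and the distance between B1 and B2 exceeded that between A and B1. The mesenchymal markers were higher in both libraries of B and the depth was lower in B2, as given above, and their part in these ratios was not tested.

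Median differences between technical libraries and between replicates were similar in size, but the measures are unlike. The technical ones compare single libraries, whereas A and B are means of 2 libraries, which scatter less. All 69 subunits above 10 FPKM were higher in A2 than in A1, so that difference was in part a common shift. Replicate variation therefore cannot be judged against technical variation from these values. Over the 69 subunits above 10 FPKM, the median absolute difference was 0.19 between A1 and A2, 0.12 between B1 and B2 and 0.14 between A and B. In 18 of the 69 the difference between A and B was larger than both technical ones. The same share was not determined for all gene names. The levels in A and B had a Spearman correlation of 0.974 across the 69 subunits, a description over genes of the same cultures.

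All 69 subunits were higher in A2 than in A1, with a median ratio of 1.14 and a range of 1.01 to 1.24, against 63.1% of 6636 names with a median ratio of 1.04. The cytosolic ribosomal protein genes had a median ratio of 1.15, with 78 of 78 higher in A2, and the mitochondrial ones of 1.10, with 65 of 68. Between B1 and B2 the median ratio of the subunits was 0.996 and the range was wider, from 0.550 for *Ndufa6* to 1.52 for *Cox7c*. *Ndufa6*, of the quinone-binding module, gave 258 FPKM in B1 and 142 FPKM in B2, and *Cox7c* gave 511 and 777 FPKM.

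**Figure D5:**
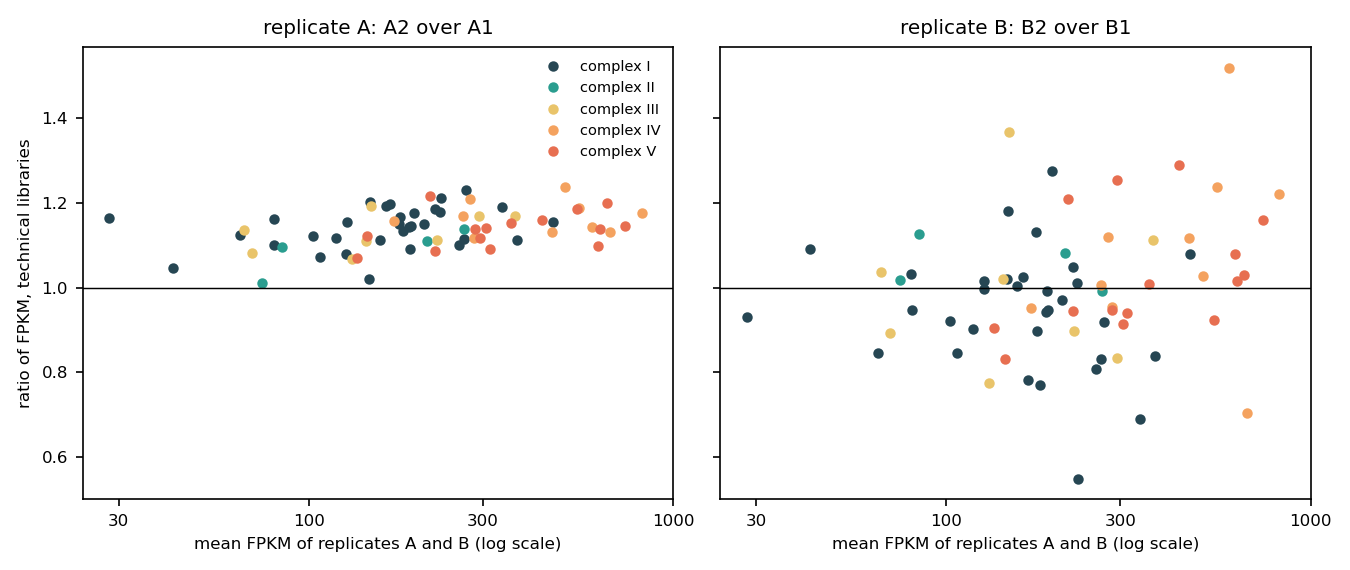
Ratio of FPKM between technical libraries (left, A2 over A1; right, B2 over B1) against mean FPKM on a log axis for the 69 subunits above 10 FPKM, coloured by complex. The ratios of A lie between 1.01 and 1.24, all above the line at 1, and those of B between 0.550 and 1.52.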

How the data were processed

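PolyA mRNA-seq libraries of the rat were examined, 2 technical libraries of each of 2 biological replicates. The 2 Start-seq samples of the series were not analysed here. The authors aligned reads to rn6 with STAR, and the submitters' processing notes also name cutadapt, HISAT and StringTie, with versions not given in the sources used here. The deposited tables have the layout of StringTie gene abundances, while the authors' methods name Rsubread and DESeq2 for FPKM. FPKM had been computed by the authors, with scaling to transcript length and depth, and was taken as it stands. TPM, also from the authors, had a total of 1000000 per library. Coverage, as deposited, is an unscaled read depth per gene, and its ratio to FPKM served as a measure of relative depth, since total read numbers were not used here and no counting interval was formed. The strand setting of the counting is not given in the sources used here.

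Rows of a gene name were summed with pandas 2.3.3 and numpy 2.4.6 in python 3.11.15. Figures were drawn with matplotlib 3.10.9. Groups and replicates came from the sample labels. With 1 condition no test was run, and a difference between A and B was counted by a rule of size (pseudocount 1, mean of at least 1 FPKM, log2 difference of at least 1, no overlap). The rule was also run on simulated data, whose outcome is not given here, and its error rate in this design is not stated. The members and lists were chosen with earlier results of these data known. Genes were named with values if they belonged to an isoform family, were the 3 highest or 2 lowest subunits of a complex, carried a redox centre or formed the head of complex V, differed between A and B, were assembly factors, were listed at 0 or had several rows, or, outside the rule, were *Cyc1*, *Cycs*, *Ppargc1a* or the highest and lowest of a list. Genes named for extreme differences, in head-to-head pairs or in a promoter set were chosen after their values were seen. Certain items, among them 1 subunit gene, are not reported here by name. Members were matched to RefSeq (GRCr8) by symbol (72) or synonym (17), and promoters came from the same source, whose coordinates differ from those of rn6. Alternatives were TPM, other thresholds and pseudocounts, another scaling, the highest row of a name, and leaving out a replicate or library B2.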

Additional observations from a re-analysis of the deposited data

Results flagged for a closer look

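In 91 sets of 4 libraries (the 89 members and 2 measures of the whole libraries), 6 had 1 library far from the other 3 by Dixon's criterion, where chance gives about 1 in 20. That rate assumes 4 independent values, whereas the libraries are technical pairs of 2 replicates. All 69 subunits above 10 FPKM were higher in A2 than in A1, so the flags in these libraries cannot be counted as separate events. The share of all gene names that meet the criterion was not determined. *Atp5g2* was lowest in A1, at 571 FPKM against 674 to 693 FPKM in the others, and *Ndufb3* was lowest in A1, at 114 FPKM against 129.97 to 132 FPKM. *Ndufs5* was highest in A2, at 261 FPKM against 215 to 222 FPKM, *Ndufv3* at 187 FPKM against 151 to 157 FPKM, and *Sdhb* at 295 FPKM against 256 to 259 FPKM. These 5 genes had their outlying value in a library of replicate A, and none was counted as differing between A and B. Coverage per FPKM was 6.83 in B2 against 22.7 to 24.4.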

How the results depend on the processing

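Of 81 alternatives to 16 results, 64 left the result within 1 SD of the replicates or, for a count, within 1.5 times. For the median log2 difference of the subunits the yardstick was instead the median difference between A1 and A2, 0.19. No paired analysis was possible because there is 1 condition and A and B are its replicates. The percentile of the median subunit became 97.48 with the highest row of each name, 97.35 without library B2, 97.404 to 97.422 with a single replicate and 95.8 among names of at least 1 FPKM. Subunits alone held 3.08% of TPM. The count of members differing between A and B went from 0 to 1 with a threshold of 0.58 (*Cox6b2*, higher in B, against 16.5% of all names), with TPM (*Cox4i2*, higher in A, against 6.91%) and with a pseudocount of 0.1 and no filter (*Cox4i2*, against 7.73%), a setting chosen after seeing the data. The share of *Ndufa4* was 98.9% without library B2. Complex medians in TPM were 296, 248, 244, 813 and 524 for I to V. With a single replicate the median of complex I ranged from 171 to 172 FPKM and that of complex IV from 454 to 493 FPKM. With 2 replicates the SD is itself poorly known, and isoforms near 1 FPKM rest on few fragments, most of all in B2.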
